A study of Mus musculus with 58 samples.

Results

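RNA-seq read counts of 14 sham-operated mice, 7 E4/Abca1+/- and 7 E4/Abca1+/+, were compared to ask what the loss of 1 copy of Abca1 does in the APOE4 brain without an impact. The members were defined by their labels (APOE4 or APOE4het genotype, sham surgery) and are 14 of the 58 mice of the series. Earlier results of these data were known when this comparison was chosen. Both groups carried human APOE4 in place of mouse Apoe (targeted replacement, homozygous), were on a C57BL/6 background and were 3 months old at surgery. The E4/Abca1+/- group held 4 females and 3 males and the E4/Abca1+/+ group 3 females and 4 males. Sham mice, the controls of a controlled cortical impact (TBI) study, had anesthesia and a craniotomy but no impact, and their tissue was taken on day 14. Cortex and hippocampus of 1 slice were frozen and extracted together, so each library is a mixture of both regions and of all their cells. The part of Abca1 that is disrupted, and whether the compared mice were littermates, are not given in the sources used here.

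ABCA1 is a membrane transporter that moves cholesterol and phospholipid out of cells onto lipid-poor apolipoproteins. In the brain its main acceptor is apolipoprotein E, which astrocytes and microglia secrete, and poorly lipidated particles form when ABCA1 is reduced. Transcription of the gene is driven by liver X receptors (LXR), which sense oxidised cholesterol and bind as dimers with RXR to a direct repeat in the promoter.

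The stretch of the Abca1 promoter that holds this repeat is shown, as it stands in the reference genome, because the targeted gene is the first readout below. It lies at chr4:53159896-53160022 on the minus strand (RefSeq, GRCm38.p6) and is written 5′ to 3′ on that strand, with the direct repeat in capitals.
Abca1 promoter: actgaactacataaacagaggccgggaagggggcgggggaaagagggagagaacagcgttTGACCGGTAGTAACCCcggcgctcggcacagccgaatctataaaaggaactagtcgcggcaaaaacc
The repeat starts 67 bases and ends 52 bases before the start site that the RefSeq promoter table uses, at position 53159895. The outermost start of the gene's annotation lies further upstream, at 53159988, so the repeat falls inside the annotated span of the gene. The letters searched were the capitals with their 4 central bases left free, on both strands, and 3 of 32851 annotated promoters (0.00913%) held them in the 250 bases before the start. The match is a description of the sequence and not a measured binding site.

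Library depth separated the groups completely. The 7 E4/Abca1+/- libraries held 18311106 to 28467098 counts (median 20511272) and the 7 E4/Abca1+/+ libraries 4695676 to 14064531 (median 9715595), a ratio of 2.44 between geometric means with no overlap (two-sided exact permutation test, p = 0.000583, the smallest that 7 against 7 mice can give). Abca1 copy number and depth therefore cannot be told apart within the sham mice, and values at overlapping depth are given where injured mice allow them. Levels below are CPM, counts relative to the library total after TMM scaling over all 58 mice. In these libraries 3 counts correspond to 0.105 to 0.639 CPM, and this limit covers counting error only. Fold changes are log2 values of E4/Abca1+/- minus E4/Abca1+/+ with their standard error (SE), from edgeR's quasi-likelihood test with Benjamini-Hochberg adjustment over all 15171 genes. A gene was called when its adjusted p was below 0.05. Xist was at 512.1 CPM or more in the 7 mice labelled female and at 5.45 or less in the 7 labelled male, so the sexes matched their labels.

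Abca1 itself (chr4:53030789-53159988, minus strand) was modestly lower in the haploinsufficient mice. The 7 E4/Abca1+/+ mice had 44.9, 49.8, 41.3, 33.3, 49.1, 48.9 and 51.7 CPM, and the 7 E4/Abca1+/- mice 28.9, 42.4, 35.1, 35.2, 41.1, 31.3 and 36.4 CPM. The groups overlapped mainly through Abca1+/+ mouse 4, which was below 5 of the 7 carriers, and Abca1+/- mouse 2 was also above Abca1+/+ mouse 3. The fold change was -0.35 (SE 0.09), a ratio of 0.782, and did not pass the threshold (adjusted p = 0.0783, edgeR). Leaving out Abca1+/+ mouse 4 moved it to -0.41 and past the threshold (adjusted p = 0.0242, edgeR), and both DESeq2 (adjusted p = 0.0201) and edgeR's exact test (adjusted p = 0.0297) called it with all 14 mice. Abca1 was not called with the libraries drawn at random to equal depth (-0.34, adjusted p = 0.142, edgeR). Nor was it called with the log2 library total as a covariate (-0.47, adjusted p = 0.193, edgeR) or in a fit over all 58 mice (-0.36, adjusted p = 0.451, edgeR). The counts are sums over the whole gene, so transcript of the disrupted allele cannot be told from that of the intact copy.

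Within each sex the level of Abca1 was as follows. The 3 Abca1+/+ females had 48.9 to 51.7 CPM and the 4 Abca1+/- females 31.3 to 36.4 CPM, without overlap, with a fold change of -0.53 (adjusted p = 0.00578, edgeR, females alone). Males overlapped, at 33.3 to 49.8 CPM in 4 Abca1+/+ and 28.9 to 42.4 CPM in 3 Abca1+/- mice, with a fold change of -0.19 (adjusted p = 0.691, edgeR, males alone). The difference between the sexes was itself -0.33 with an unadjusted p of 0.0846 (adjusted p = 0.81, edgeR interaction), so the effect was not shown to differ between them. In E3 sham mice, none of which are among the 14, the fold change of Abca1 was -0.45 (SE 0.08, adjusted p = 0.00933, edgeR). After injury in E4 mice it was -0.19 (SE 0.24, adjusted p = 0.724, edgeR), where levels were higher and more spread, at 98.7 to 295.6 CPM in Abca1+/+ and 81.0 to 214.5 CPM in Abca1+/- mice.

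Genes of cholesterol efflux and of the LXR response held no called member. None of the 31 tested genes, Abca1 included, passed in either direction, where 0.303% of all genes were called higher and 0.600% lower. At an unadjusted p below 0.05, 1 was higher and 7 were lower (edgeR), beside 7.11% and 8.60% of all genes, and the median fold change was -0.04. Abca7, a related lipid transporter of microglia and neurons, had the next smallest p at -0.32 (SE 0.10, adjusted p = 0.117, edgeR). Abcg1, the transporter that loads cholesterol onto formed particles, was at 101.1 ± 6.66 CPM (SD, n = 7) in Abca1+/+ and 94.8 ± 4.50 in Abca1+/- mice, with a fold change of -0.09 (SE 0.04). Of 26 sterol synthesis genes none was called (1 higher and 1 lower at an unadjusted p below 0.05, edgeR), with a median of 0.01. Mouse Apoe was counted at 16.4 to 22.9 CPM in all 14 libraries, with a fold change of 0.02 (SE 0.09). The coding sequence in these mice is human, and reads from it need not align to the mouse gene.

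Across the transcriptome 137 of 15171 genes were called (0.903%), 46 higher (0.303%) and 91 lower (0.600%). The changes were small, with a median absolute fold change of 0.30, 111 of the 137 under 0.5 and 6 above 1. Unadjusted p values below 0.05 were found for 15.7% of all genes. The E4/Abca1+/- and E4/Abca1+/+ values did not overlap for 60 of the 137 called genes, and for 0.659% of all genes tested. By annotation, 12 of the 15 tested genes of the mitochondrial chromosome were among the called genes.

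How many genes passed depended on single mice. Leaving out Abca1+/+ mouse 1, 2, 3, 4, 5, 6 or 7 left 14, 10, 14, 106, 38, 11 and 25 genes higher and 37, 46, 40, 140, 85, 39 and 68 lower, in that order. Leaving out Abca1+/- mouse 1, 2, 3, 4, 5, 6 or 7 left 167, 14, 26, 17, 27, 12 and 15 genes higher and 331, 38, 86, 50, 63, 46 and 50 lower. The deepest library, Abca1+/- mouse 1, was the one whose removal raised both counts most. Of the 137 genes, 41 were called in all 14 of these fits, 9 higher and 32 lower, and 8 of the 41 are mitochondrially encoded. When counts were drawn at random so that all 14 libraries had 4695676, the test called 10 genes higher and 51 lower, and 55 of the 137 stayed called. With the log2 library total as a covariate 14 genes were higher and 13 lower, and 12 of the 137 stayed called.

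**Figure D1:**
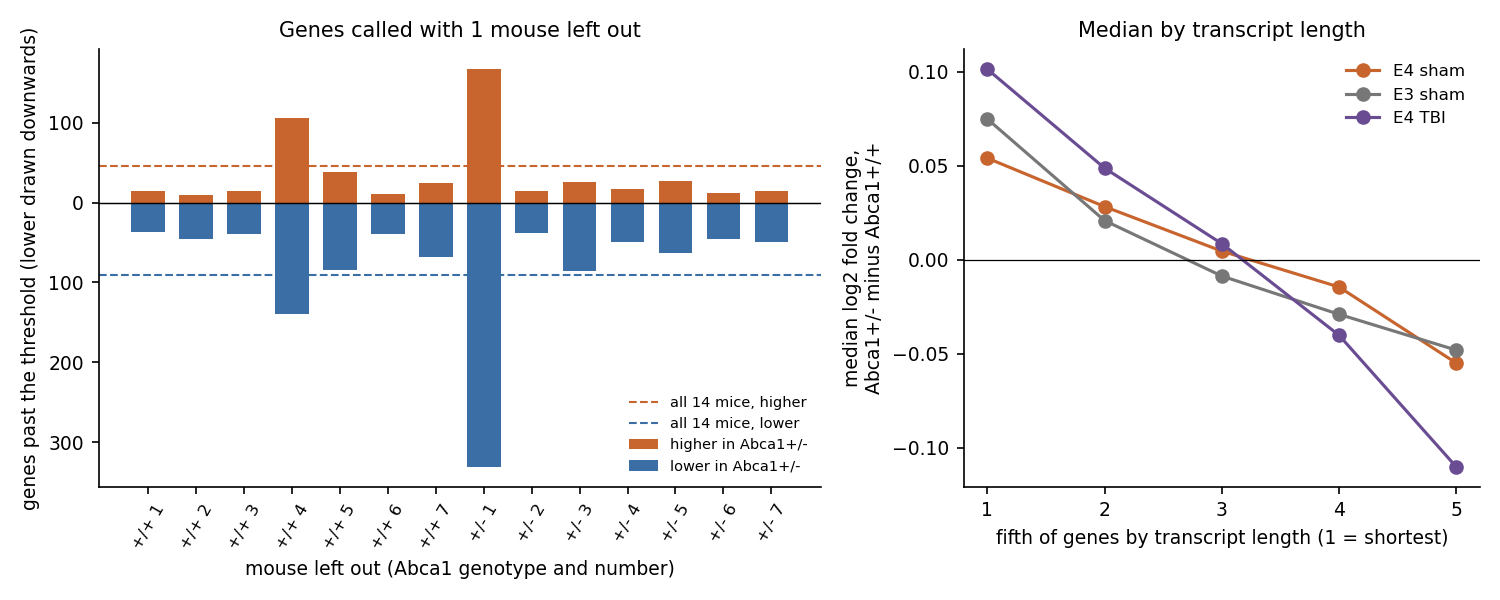
Left, number of genes past the threshold (y axis, higher in E4/Abca1+/- upwards and lower downwards) with each of the 14 mice left out in turn (x axis), with dashed lines at 46 and 91 for all mice. Right, median log2 fold change of genes in 5 equal groups by transcript length (x axis) in 3 comparisons, which falls from the shortest to the longest group in each.

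Atp5j2 was the gene with the smallest p. It encodes a small subunit of the membrane part of mitochondrial ATP synthase and lies at chr5:145183704-145191541. The 7 Abca1+/+ mice had 33.4, 33.98, 39.4, 45.6, 33.7, 33.0 and 32.9 CPM and the 7 Abca1+/- mice 81.9, 77.5, 76.2, 82.4, 73.2, 81.0 and 74.6 CPM. Every carrier was far above every control, with a fold change of 1.13 (SE 0.06, adjusted p = 1.55e-08, edgeR), and it was called in all 14 leave-one-out fits, in males alone, in females alone, after thinning and with the library total as a covariate. The fold change was 1.19 in E3 sham mice (adjusted p = 6.78e-11, edgeR) and 1.13 in E4 TBI mice (adjusted p = 5.115e-06, edgeR).

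The level of Atp5j2 could be read at overlapping depth after injury. There 4 of 8 E4/Abca1+/- TBI libraries were no deeper than the deepest Abca1+/+ TBI library, at 5471936 to 14054624 counts, and they had 73.6 to 82.6 CPM, against 31.8 to 46.8 CPM in the 7 Abca1+/+ TBI mice. No other annotated gene had a transcript of at least 95% identity to that of Atp5j2 over 100 bases or more, so a shared-read copy was not found for it.

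**Figure D2:**
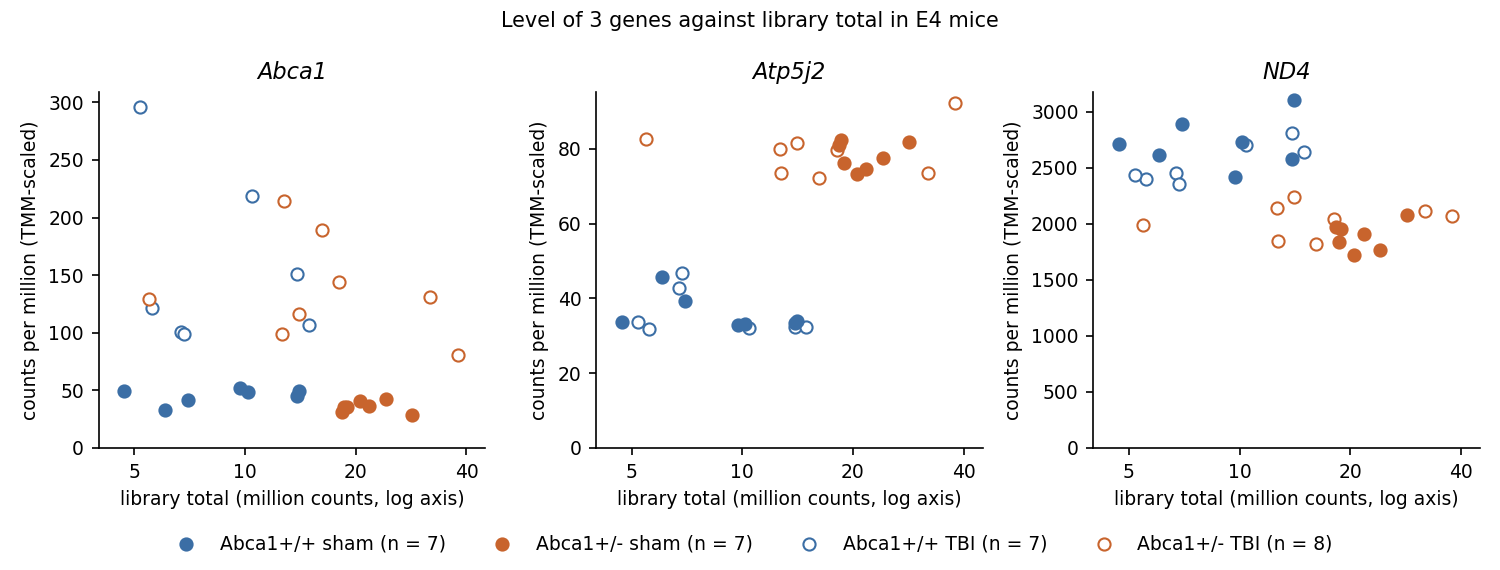
Level of Abca1, Atp5j2 and ND4 (y axis, CPM) against library total (x axis, log axis) in E4 mice, one point per mouse, filled for sham and open for TBI, blue for Abca1+/+ and orange for Abca1+/-. Atp5j2 splits by genotype where libraries of injured mice share a depth, and sham libraries of the 2 genotypes share none.

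Mitochondrially encoded genes were lower in the haploinsufficient mice. The mitochondrial chromosome encodes 13 subunits of the respiratory chain and ATP synthase, and its 2 ribosomal RNAs serve their translation. Of the 13 subunit genes 11 were called lower and 0 higher (background 0.600% of all genes lower), with a median of -0.56 beside -0.0002 over all genes tested. In 9 of the 13 the groups did not overlap (background 0.363%). The share of all counts on mitochondrial genes was 3.61% to 4.32% in Abca1+/+ and 2.62% to 3.26% in Abca1+/- mice.

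ND4, a subunit of complex I, had the smallest p of them. The 7 Abca1+/+ mice had 2577, 3105, 2893, 2615, 2708, 2730 and 2418 CPM, and the 7 Abca1+/- mice 2081, 1766, 1950.0, 1839, 1719, 1970.0 and 1910.0 CPM. Every carrier was below every control, and the fold change was -0.52 (SE 0.05, adjusted p = 6.44e-05, edgeR). The other complex I genes ND1, ND2, ND5, ND6 and ND3 fell by 0.49, 0.52, 0.56, 0.59 and 0.89 on the log2 scale. ND6 lies on the strand opposite to the other subunit genes, so reads of the other strand may be counted for it where the counting ignored strand. ND4 and ND4L overlap on the same strand, so their reads may be split by the counting. CYTB of complex III fell by 0.39, and COX1, the catalytic core of complex IV, fell by 0.43. These 8 were called in all 14 leave-one-out fits and after thinning, and all but CYTB were also called with the library total as a covariate (CYTB adjusted p = 0.0693, edgeR).

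The remaining genes of that chromosome were less uniform. ATP6 fell by 0.88 (SE 0.17) and ATP8 by 1.39 (SE 0.27), both subunits of ATP synthase whose reading frames overlap, so their reads may be split by the counting. COX2 fell by 0.56 (SE 0.13) and the ribosomal RNA Rnr1 by 0.30 (SE 0.07). ATP6 lost its call without Abca1+/+ mouse 6, ATP8 in 6 of the 14 leave-one-out fits, and COX2 and Rnr1 kept theirs in 3 and 4 of them. COX3 was at -0.08 (SE 0.12), ND4L at -0.99 (SE 0.50) and Rnr2 at -0.26 (SE 0.06), none of them called.

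The same genes were compared in mice outside the 14. After injury 6 of the 13 were called lower in E4 mice (background 0.844% of all genes), with a median of -0.38. Of the E3 sham comparison 1 was called lower (background 0.883%), ND2 at -0.29, with a median of -0.21. The effect in E4 sham mice was more negative than in E3 sham mice for COX1 by -0.355 (unadjusted p = 0.000374, edgeR interaction), but its adjusted p was 0.627, and none of the 13 passed the adjusted test of that difference. At an unadjusted p below 0.05 the difference was found for 11 of the 13, beside 7.15% of all genes. The 13 share a chromosome and were counted in the same mice, so they are not 13 independent results. At overlapping depth after injury the 4 shallower Abca1+/- libraries had 1843 to 2235 CPM of ND4 and the 7 Abca1+/+ libraries 2354 to 2811, again without overlap. COX1 did overlap there, at 7796 to 9699 against 8569 to 10920.0 CPM.

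**Figure D3:**
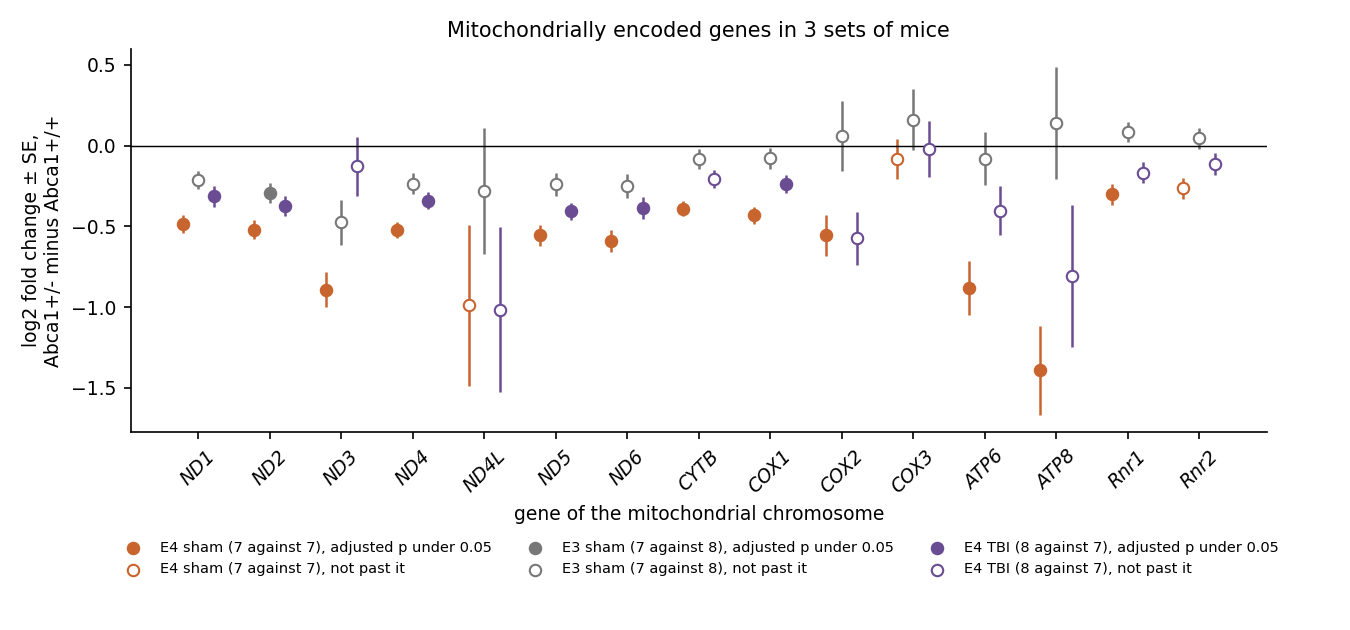
Log2 fold change with SE (y axis), Abca1+/- minus Abca1+/+, of 15 genes of the mitochondrial chromosome (x axis) in E4 sham, E3 sham and E4 TBI mice. Filled points have an adjusted p under 0.05; 12 E4 sham points are filled, all below 0.

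Nuclear genes of the same machinery were higher where they were called. Of 74 nuclear respiratory chain and ATP synthase genes 4 were called higher and 0 lower (background 0.303% higher), with a median of 0.08. At an unadjusted p below 0.05, 27 were higher and 1 lower (edgeR), beside 7.11% and 8.60% of all genes. The shortest of the 5 groups of nuclear genes by transcript length, described below, had a median of 0.05. The part of transcript length here and in the ribosomal list below was not tested. Besides Atp5j2 the called genes of the list were Ndufs4, an accessory subunit of complex I, at 0.23 (SE 0.04), Cox6b1 of complex IV at 0.18 (SE 0.04) and Cox7a2l, a factor for assembly of supercomplexes, at 0.16 (SE 0.04). Ndufs4 rose from 53.5 ± 2.67 to 62.4 ± 2.39 CPM (SD, n = 7 each) without overlap and was called in all 14 leave-one-out fits, while Cox6b1 was called in 5 and Cox7a2l in 3 of them. At equal depth after thinning Ndufs4, Cox6b1 and Cox7a2l were not called (adjusted p = 0.136, 0.101 and 0.26, edgeR), at 0.23, 0.18 and 0.16, nor were they with the library total as a covariate. Among E3 sham mice 15 of the 74 were called higher (background 1.32%) and 0 lower, and among E4 TBI mice 2 (background 0.547%) and 0.

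Ribosomal protein genes gave a similar count. Of 77 cytosolic members 3 were called higher and 0 lower, namely Rpl8 at 0.20, Rpl29 at 0.27 and Rps3 at 0.16, each called in 3 of the 14 leave-one-out fits and none after thinning (background 0.303% higher). At an unadjusted p below 0.05, 22 were higher and 8 lower, beside 7.11% and 8.60% of all genes, with a median of 0.04. Rps29 was the farthest from 0 at -2.48 (SE 0.67, adjusted p = 0.0848, edgeR), where the Abca1+/+ mice spread widely, at 10.1 ± 13.7 CPM (SD, n = 7) against 1.68 ± 0.39. Among E3 sham mice 8 of the 77 were called higher (background 1.32%) and 1 lower (background 0.883%), with a median of 0.05. Among E4 TBI mice 14 were called higher (background 0.547%) and 0 lower, with a median of 0.17.

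Among the 15 higher genes with the smallest p, Cpe, the carboxypeptidase that trims neuropeptide precursors, had 2301 to 2564 CPM in Abca1+/+ and 2634 to 3003 CPM in Abca1+/- mice, without overlap (0.21, SE 0.03, adjusted p = 0.00806, edgeR). Scg5, a chaperone of a prohormone convertase, rose by 0.17 (SE 0.04) and Mydgf, a secreted growth factor, by 0.26 (SE 0.05). Tmem30a, the partner subunit of phospholipid flippases, rose by 0.20 (SE 0.04), and Atp6v0e2, a subunit of the proton pump of vesicles, by 0.18 (SE 0.04). Cpe was called in all 14 leave-one-out fits, Scg5 and Atp6v0e2 in 10, Mydgf in 9 and Tmem30a in 7. After thinning Cpe, Tmem30a and Atp6v0e2 stayed called and Scg5 and Mydgf did not (adjusted p = 0.17 each, edgeR), and none of the 5 was called with the library total as a covariate.

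Small increases were measured for the rest of these 15. Mrpl48, a mitochondrial ribosomal protein, rose by 0.27, the reductase Cyb5r3 by 0.25, Tm2d2 by 0.25, the kinetochore protein Bod1 by 0.20 and the phosphatase Phpt1 by 0.40. All but Phpt1 (8 fits) were called in all 14 leave-one-out fits. After thinning Cyb5r3 stayed called and Mrpl48, Tm2d2, Bod1 and Phpt1 did not (adjusted p = 0.0668, 0.198, 0.17 and 0.0928, edgeR), while with the library total as a covariate Tm2d2 and Phpt1 were called and the other 3 were not. Gm14586 at 0.29 and Gm1821 at 0.29 are annotated pseudogenes, as are 5 of the 46 higher genes (10.9%) beside 1.41% of all genes tested. Reads of a pseudogene and of its parent gene may be exchanged by the counting, so these are uncertain.

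Among the 15 lower genes with the smallest p, 8 were mitochondrially encoded and 7 nuclear. Gtf2a1, a general transcription factor, had 36.6 to 48.2 CPM in Abca1+/+ and 28.6 to 32.3 CPM in Abca1+/- mice, without overlap, and fell by 0.44 (SE 0.06, adjusted p = 0.000396, edgeR). Zkscan1, a zinc finger protein, fell by 0.26, the chromatin proteins Nucks1 and Cbx3 by 0.33 and 0.60, and Lrrc58 by 0.28. The kinase Taok1 fell by 0.34 and Dpysl2, which guides axon growth through microtubules, by 0.52. For each of these 7 the groups did not overlap (background 0.363% of all genes lower), and each was called in all 14 leave-one-out fits and after thinning. Like the 15 higher genes above, they were picked by their small p in these same mice, so these results are not separate support. None of the 7 was called with the library total as a covariate, where the fold changes were -0.66 to -0.22 (adjusted p = 0.0693 to 0.207, edgeR). All 7 were also called lower in E3 sham mice, at -0.55 to -0.27 (background 0.883% of all genes lower).

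Further lower genes, picked after their values were seen, are long noncoding or circular-RNA loci and genes of vessel smooth muscle. Malat1, an abundant nuclear noncoding RNA, had 175.5 to 313.0 CPM in Abca1+/+ and 73.1 to 173.2 CPM in Abca1+/- mice and fell by 0.97 (SE 0.17, adjusted p = 0.0122, edgeR), with a call in all 14 leave-one-out fits. Counts at the Cdr1 gene, which cannot be assigned to its circular or linear transcripts here, fell by 0.92 (SE 0.18, adjusted p = 0.023, edgeR) and lost the call without Abca1+/+ mouse 1. Myh11, the smooth muscle myosin, fell by 0.90 (SE 0.20) and Smtn by 0.45 (SE 0.10), called in 5 and 4 of the 14 leave-one-out fits, and Acta2 was at -0.80 (SE 0.20, adjusted p = 0.0698, edgeR). The same 3 smooth muscle genes were at -0.05, 0.07 and -0.25 in E3 sham mice, none of them called. After thinning Malat1, Cdr1 and Myh11 stayed called and Smtn did not (-0.26, adjusted p = 0.505, edgeR). With the library total as a covariate none of Malat1, Cdr1, Myh11 and Smtn was called (adjusted p = 0.0913 to 0.399, edgeR).

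Called genes differed from the rest in transcript length. The median transcript was 1538 bases for the higher genes (38 of 46 with a GENCODE transcript), 5998 for the lower genes (83 of 91) and 3241 over all genes (14320 of 15171). GC content was 50.7%, 44.9% and 50.3% in the same order. Without the mitochondrial chromosome the lower genes had medians of 6209 bases and 46.4% GC. With the nuclear genes cut into 5 equal groups by length, the median fold change fell from 0.05 in the shortest group to -0.06 in the longest. The shortest group held 25 higher and 2 lower genes and the longest 0 and 49. The same medians ran from 0.07 to -0.05 in E3 sham mice and from 0.10 to -0.11 in E4 TBI mice, comparisons in which the Abca1+/- libraries were also deeper or reached further, at 13059250 to 28184924 against 4421308 to 15941530 counts and 5471936 to 37877346 against 5192820 to 14939612 counts, so length, depth and genotype cannot be told apart.

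Beyond the 14 mice the called genes mostly kept their direction. The E3 sham and E4 TBI comparisons share no mouse with the 14 or with each other. Of the 137 genes 125 had the same sign in E3 sham mice, where 9244 of all 15171 genes did, and 38 were called there in the same direction. That comparison called 1.32% of all genes higher and 0.883% lower (8.60% and 7.90% at an unadjusted p below 0.05). After injury 135 had the same sign in E4 mice, where 10356 of all genes did, and 35 were called in the same direction. That comparison called 0.547% higher and 0.844% lower (8.56% and 9.67% unadjusted). No gene differed between the E4 sham and the E3 sham effect at an adjusted p below 0.05 (edgeR, 0 of 15171; 1084 genes or 7.15% at an unadjusted p below 0.05; DESeq2 0). None differed between sham and TBI (edgeR 0; 735 or 4.84% unadjusted; DESeq2 0) or between males and females (edgeR 0; 895 or 5.90% unadjusted; DESeq2 0).

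Neighbours of Abca1 on chromosome 4 were examined next. Genes close to a disrupted gene tend to be inherited with it when a line is bred. Of 121 such genes within 10 Mb 1 was called, beside 0.903% of all genes, and 15 were higher and 11 lower at an unadjusted p below 0.05 (7.11% and 8.60% of all genes). The called gene was Anp32b at chr4:46450926-46472657, a histone chaperone, which rose by 0.32 (SE 0.06, adjusted p = 0.0185, edgeR) from 25.9 to 33.1 CPM in Abca1+/+ to 31.9 to 39.7 CPM in Abca1+/- mice. The only carrier within the range of the controls was Abca1+/- mouse 1, and the gene was called in all 14 leave-one-out fits. It was not called after thinning (0.30, adjusted p = 0.143, edgeR) or with the library total as a covariate (0.38, adjusted p = 0.132, edgeR).

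At the far end of that window 3 adjacent genes, chosen after their values were seen, had 2 distinct levels. They are Bspry (chr4:62480011-62497300), the phosphatase-like Hdhd3 (chr4:62499054-62502200) and Alad (chr4:62505984-62520063), which encodes the second enzyme of heme synthesis. Alad was at 51.9 to 56.9 CPM in Abca1+/- mice 3, 4, 5 and 7, at 19.1 to 20.5 CPM in Abca1+/- mice 1, 2 and 6, and at 17.4 to 22.4 CPM in the 7 Abca1+/+ mice. Hdhd3 was at 12.9 to 16.1 CPM in the same 4 carriers, at 4.64 to 4.72 in the other 3 and at 3.22 to 5.89 in the controls. Bspry was at 2.24 to 3.34, 0.219 to 0.385 and 0 to 0.368 CPM.

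None of the 3 was called as a group difference, with adjusted p values (edgeR) of 0.0709 for Bspry, 0.0753 for Hdhd3 and 0.0849 for Alad. The tested genes to either side were Wdr31 at 0.08 (SE 0.11) and Pole3 at 0.21 (SE 0.10). The 2 levels recurred through the series, with Alad above 40 CPM, Hdhd3 above 10 and Bspry above 1.5 in 22 mice, and all 3 genes high or low together in 58 of 58. High levels were found in 0 of 7 E4/Abca1+/+ sham, 0 of 7 E4/Abca1+/+ TBI, 4 of 7 E4/Abca1+/- sham and 7 of 8 E4/Abca1+/- TBI mice. In E3 sham mice they were found in 3 of 8 Abca1+/+ and 3 of 7 Abca1+/- mice, and in E3 TBI mice in 1 of 8 and 4 of 6, so in the E3 mice they were not limited to carriers.

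**Figure D4:**
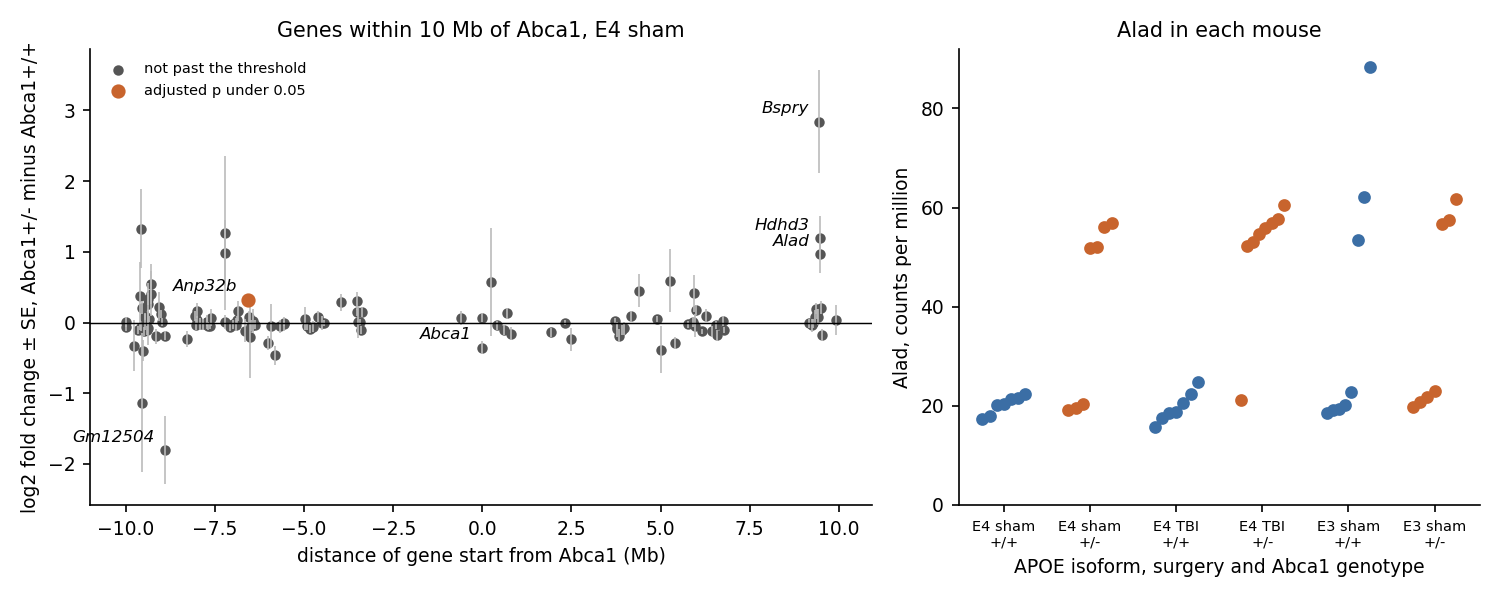
Left, log2 fold change with SE (y axis) of the genes within 10 Mb of Abca1 in E4 sham mice against distance of the gene start (x axis, Mb); only Anp32b is past the threshold. Right, Alad level (CPM) in each mouse of 6 groups, blue for Abca1+/+ and orange for Abca1+/-, with a high level of 51.94 CPM or more and a low level of 24.72 or less in these groups.

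Microglial genes had positive medians in the carriers, which shrank without 1 mouse. Of 35 homeostatic microglia genes 1 was called, Fcgr3, an activating receptor for antibody, beside 0.303% of all genes called higher, and 32 were above 0 with a median of 0.23. Fcgr3 was at 11.4 to 13.98 CPM in Abca1+/+ and 13.98 to 25.7 CPM in Abca1+/- mice, ranges that lay next to each other without overlap, and rose by 0.51 (SE 0.11, adjusted p = 0.04, edgeR). Without Abca1+/- mouse 2, which had the highest level, it was 0.41 (adjusted p = 0.0447, edgeR), and it was called in 4 of the 14 leave-one-out fits and not after thinning (adjusted p = 0.137, edgeR). Among the others, the signalling adaptor Tyrobp was at 0.46 (SE 0.16) and the complement gene C1qa at 0.39 (SE 0.14), neither called.

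The summed level of the homeostatic list was 751.5 to 877.5 CPM in Abca1+/+ and 758.4 to 1243 CPM in Abca1+/- mice, and at most 972.5 CPM without mouse 2. Without mouse 2 the median was 0.15 and 6 genes rather than 14 were higher at an unadjusted p below 0.05 (background 7.11% with all mice). Of 28 disease-associated microglia genes 0 were called (10 higher and 1 lower at an unadjusted p below 0.05, edgeR), with a median of 0.28 that became 0.10 without mouse 2. That mouse had 9.37 CPM of Clec7a and 6.44 of Itgax, against at most 1.43 and 1.18 in the other 6 carriers. Its summed disease-associated level was 2376 CPM, against at most 1618 in the other carriers and 2244 to 6853 in E4/Abca1+/+ TBI mice. Its homeostatic sum of 1243 CPM was below the lowest of those TBI mice, at 1450. The medians of both lists in E3 sham mice were -0.01 and 0.07, and in E4 TBI mice 0.42 and 0.71. In bulk tissue fewer cells of a type and less RNA per cell cannot be told apart, here and for the lists below.

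Astrocyte and inflammatory lists held no called gene. Of 21 reactive astrocyte genes 0 were called, and the median of 0.31 became 0.03 without mouse 2. At an unadjusted p below 0.05, 5 were higher and 1 lower (edgeR), beside 7.11% and 8.60% of all genes. Gfap, the intermediate filament of astrocytes, was at 216.3 to 306.4 CPM in Abca1+/+ and 259.1 to 673.2 CPM in Abca1+/- mice, the highest being mouse 2 (0.55, SE 0.16, adjusted p = 0.116, edgeR). The summed reactive astrocyte level was 1221 CPM in mouse 2, at most 855.4 in the other carriers and 1332 or more in E4/Abca1+/+ TBI mice. Of 24 complement and antigen-presentation genes and 25 interferon-stimulated genes 0 were called (2 higher and 0 lower in each at an unadjusted p below 0.05, edgeR). Their medians, 0.06 and 0.07, became -0.04 and -0.04 without mouse 2.

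Vascular genes had a negative median. Of 25 endothelial and mural genes 2 were called lower (background 0.600%) and 0 higher, and 15 were lower at an unadjusted p below 0.05 (background 8.60%). Of the 25 genes 24 were below 0, and the median was -0.21 (-0.20 without mouse 2). Abcb1a, the efflux pump of the blood-brain barrier, was at 29.6 to 45.3 CPM in Abca1+/+ and 24.9 to 34.5 CPM in Abca1+/- mice and fell by 0.38 (SE 0.08, adjusted p = 0.0432, edgeR). Cdh5, the cadherin of endothelial junctions, was at 12.4 to 14.7 and 9.45 to 12.2 CPM, without overlap, and fell by 0.32 (SE 0.07, adjusted p = 0.0449, edgeR). Each was called in 4 of the 14 leave-one-out fits, and neither after thinning (adjusted p = 0.128 and 0.136, edgeR). The summed level of the list was 908.7 to 1054 CPM in Abca1+/+ and 875.7 to 940.7 CPM in Abca1+/- mice. Its median was 0.03 in E3 sham and -0.06 in E4 TBI mice.

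Myelin genes held 1 called member. Of 23 members 1 was called lower (background 0.600%), Sox10, the transcription factor of the oligodendrocyte lineage, at -0.34 (SE 0.08, adjusted p = 0.0498, edgeR), a call kept in 2 of the 14 leave-one-out fits and lost after thinning (adjusted p = 0.07, edgeR). The median was -0.15, 11 were lower at an unadjusted p below 0.05 (background 8.60%) and 0 higher, and Mbp, the major protein of compact myelin, was at 1318 ± 120.5 and 1146 ± 108.0 CPM (SD, n = 7 each; -0.20, SE 0.06). The summed levels overlapped, at 3478 to 4788 in Abca1+/+ and 3572 to 4147 CPM in Abca1+/- mice.

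**Figure D5:**
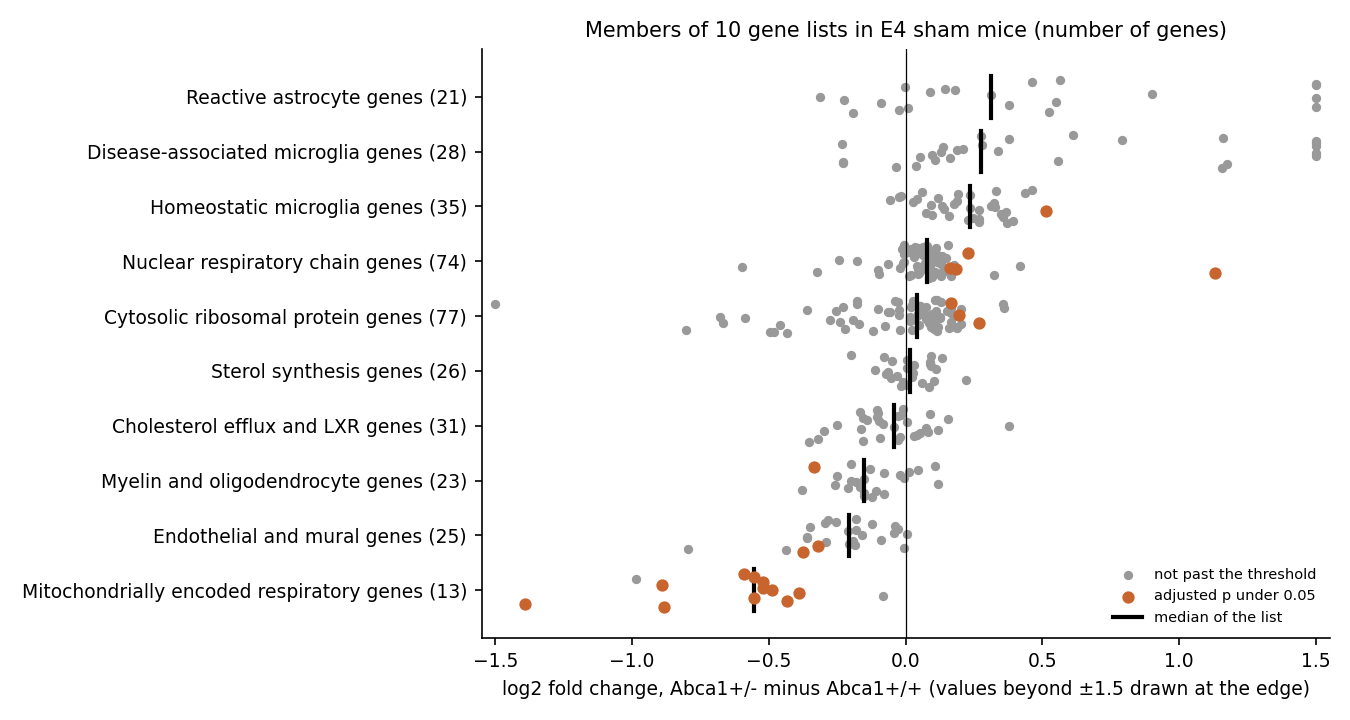
Log2 fold change (x axis, Abca1+/- minus Abca1+/+ in E4 sham mice) of each member of 10 gene lists (y axis, number of genes in parentheses), with called genes in orange and the list median as a bar; values beyond 1.5 in size are drawn at the edge. Medians run from -0.56 for mitochondrially encoded genes to 0.31 for reactive astrocyte genes.

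Neuronal lists held no called gene. None of 28 synaptic, 17 interneuron, 19 hippocampal or 17 cortical layer genes was called (2 higher and 3 lower, 1 and 0, 3 and 0, and 2 and 6 at an unadjusted p below 0.05, edgeR), with medians of -0.01, 0.00, 0.07 and -0.15. Syp, a protein of synaptic vesicles, came nearest at 0.14 (SE 0.03, adjusted p = 0.058, edgeR). Of all genes, 7.11% were higher and 8.60% lower at an unadjusted p below 0.05 (edgeR).

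Markers of choroid plexus and thalamus, tissues next to cortex and hippocampus, were high in some mice only. Ttr, the defining transcript of choroid plexus, was at 810.5 to 1236 CPM in 2 Abca1+/+ and 3 Abca1+/- mice and at 7.42 CPM or less in the other 9. Tcf7l2, a marker of thalamus, was at 36.5 CPM in Abca1+/+ mouse 2 and at 6.14 or less in the other 6 controls. None of the 16 choroid plexus, 15 ependymal, 18 leptomeningeal or 19 thalamic genes was called (0, 5, 0 and 0 higher and 0, 0, 4 and 5 lower at an unadjusted p below 0.05, edgeR). Beside these counts, 7.11% of all genes were higher and 8.60% lower at that limit. The summed ependymal level was 11.1 to 35.2 CPM (median 14.2) in Abca1+/+ and 12.9 to 39.7 CPM (median 28.6) in Abca1+/- mice. Of the 15 ependymal genes 14 were above 0, with a median fold change of 0.73. The part of these tissues, and of depth, in the results was not tested.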

How the data were processed

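The authors aligned reads to mm10, summarized them with Subread/featureCounts 1.5.0 and deposited raw counts for 58 mice. Selection of mRNA, strand of counting, litters and sequencing runs are not given in the sources used here, so p-values measure the spread between these samples. The table held 15171 genes, each with counts in at least 29 mice, and 2 empty lines. Of the Entrez IDs 14999 matched RefSeq, which also named 23 symbols stored as dates. Groups came from the labels, mice are numbered in accession order, and no pair of the 14 libraries was identical. The members and lists were chosen with earlier results of these data known. Counts were filtered with filterByExpr over the 8 groups (0 genes removed), scaled by TMM and fitted with edgeR 4.0.16 (glmQLFit, glmQLFTest; R 4.3.3) on the mice compared. DESeq2 1.42.0, edgeR's exact test, other filters, thinning, covariates, each sex alone and each mouse left out were tried. Named were Abca1, Apoe, called neighbours within 10 Mb, the 15 genes of smallest p per direction and, per list, up to 6 called members or else the 2 of smallest p. Cdr1, Malat1, Myh11, Smtn, Acta2, Tyrobp, Abcg1, Mbp, Rps29, Clec7a, Itgax, Cst7, Ttr, Bspry, Hdhd3, Alad, Wdr31, Pole3 and the remaining mitochondrial genes were named after their values were seen. A single gene selected by this rule is not reported here. The fits were tested on simulated data. Transcripts came from GENCODE vM21 (longest coding), near copies from blastn 2.17.0.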

Additional observations from a re-analysis of the deposited data

Results flagged for a closer look

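In groups of 7 mice, 220 sets of values were screened for 1 mouse far from the rest, and 23 stood out by Dixon's criterion, where chance gives about 1 in 20. Part of these genes were picked because a mouse stood apart at them.

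Of the 23, 10 were high values of E4/Abca1+/- sham mouse 2, a male. It had 25.7 CPM of Fcgr3, 24.6 of Tyrobp, 85.2 of C1qa, 33.5 of C3, 9.37 of Clec7a, 6.44 of Itgax, 3.75 of Cst7, 723.7 of Ctsd, 84.7 of Vim and 16.1 of Lcn2. The next highest carriers were at 18.7, 14.5, 55.3, 3.24, 1.43, 1.18, 0.983, 452.9, 48.6 and 1.42 CPM in the same order.

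Abca1+/- sham mouse 1, the deepest library, was highest for ND1 at 3503 CPM, Abca7 at 28.97, Lef1 at 5.49 and ND4L at 11.3. Among the other carriers, mouse 4 was highest for Syp at 1724 CPM, mouse 6 for 1110017D15Rik at 2.35, and mouse 3 was lowest for COX3 at 66.6. Among the Abca1+/+ sham mice, mouse 4 was highest for Atp6v0e2 at 444.4 CPM and had 0 of Itgax, mouse 1 was highest for Ero1l at 42.1, mouse 2 for Tcf7l2 at 36.5, mouse 3 for Cdr1 at 34.6 and mouse 5 for ND4L at 24.7.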

How the results depend on the processing

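Against 46 genes higher and 91 lower, DESeq2 called 182 and 256, edgeR's exact test 87 and 178, thinning to equal depth 10 and 51 and the library total as a covariate 14 and 13. Females alone gave 7 and 44, and males alone 1 and 0 (edgeR; 766 and 742 at an unadjusted p below 0.05). Leaving out 1 mouse gave 10 to 167 and 37 to 331. Size factors, the other filters, the sex covariate and 1 fit over 58 mice stayed within 1.5 times of both counts. A filter set on the 14 mice alone, chosen after seeing the data, tested 14743 genes and called 55 and 91.

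Abca1 passed the threshold with DESeq2 (-0.35), the exact test (-0.35), in females (-0.53) and without Abca1+/+ mouse 4 (-0.41). Over all leave-one-out fits it ranged from -0.41 to -0.31. The differences between isoforms, surgeries and sexes stayed at 0 genes under every alternative run for them. The library total kept its direction and p when it was compared without logs.

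Of 48 called genes, those named in the report and Ptafr, 28 stayed called after thinning and 10 with the total as a covariate, and none changed sign under any alternative run. The causes were not tested. The labels give no replicate numbers, so no paired analysis was possible because mice of the 2 groups cannot be matched. Depth limits the Abca1+/+ libraries most: genes near 1 CPM, such as Bspry and Clec7a, rest on few counts there.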

Other observations

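Other lists held no called gene in the E4 sham mice. For the unadjusted counts below, the shares over all genes were 7.11% higher and 8.60% lower. Glucocorticoid-induced genes (15 tested, 2 higher and 0 lower at an unadjusted p below 0.05, edgeR), immediate early genes (23 tested, 0 and 1) and clock genes (19 tested, 0 and 4) had medians of 0.09, -0.01 and -0.06. Fkbp5, a classic glucocorticoid target, was at 57.1 to 68.4 CPM in Abca1+/+ and 56.0 to 80.4 CPM in Abca1+/- mice, and the clock gene Per3 at 39.7 to 50.5 and 34.7 to 41.1 CPM. Genes of the amino-acid response, endoplasmic reticulum chaperones and heat shock (28, 20 and 14 tested) had medians of 0.03, 0.03 and 0.01, with 1, 0 and 0 higher and 0 lower in each at an unadjusted p below 0.05 (edgeR). Homeostatic astrocyte genes (18 tested, 1 and 2) had a median of -0.01, with the glutamate transporter Slc1a2 at -0.20 (SE 0.05, adjusted p = 0.0678, edgeR). Of 7 blood cell genes 0 were called (0 and 0), with a median of -0.36 over values of few counts.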
